A study of Mus musculus with 12 samples.

Results

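The enzymes that make bile acids from cholesterol and join them to taurine were followed through mouse livers with Yap1 deleted and either both copies or 1 copy of the TAZ gene intact. The 10 genes, taken by name from the 41743 genes of both deposited tables, were Cyp7a1 and Cyp8b1 of the classic pathway, Cyp27a1 and Cyp7b1 of the alternative pathway, Hsd3b7, Akr1d1 and Amacr of steps that both pathways use, Cyp2c70 of muricholic acid synthesis, and Slc27a5 and Baat of conjugation. All 10 were found and all 10 passed the filter on low values in every comparison. Whole livers came from 12 females of 3 to 4 months, in 4 groups of 3, and their RNA was sequenced. YAP KO mice (C57BL/6 background, floxed Yap1, fl/fl, recombined by Foxa3-Cre, with a ROSA-stop fl/fl-EYFP reporter) were compared with WT littermates, WT (C57BL/6), and YAP KO TAZ HET mice (Foxa3-Cre, both copies of Yap1 and 1 copy of Wwtr1, the gene of TAZ, inactivated, on a mixed C57BL/6-FVB background) with theirs, WT (mixed). The Foxa3 promoter drives Cre in the foregut endoderm, from which both hepatocytes and cholangiocytes arise, and all mice ate standard chow under 12-hour cycles of light and dark. Which floxed alleles the WT littermates carried, and the hour at which livers were taken, are not given in the sources used here. Each gene has a TPM value (transcripts scaled for gene length and library total) per liver, a level per gene length that adds up to the same total in every library and keeps no record of depth, so, although the study's methods state a planned number of reads, the depth reached in each library is not in these values and the spread between the 3 livers of a group is the error available.

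The liver is the only organ that makes complete bile acids. In the classic pathway Cyp7a1 adds the first hydroxyl group to cholesterol and sets the rate, and Cyp8b1 adds the hydroxyl group that makes cholic acid. In the alternative pathway Cyp27a1 oxidises the side chain first and Cyp7b1 then hydroxylates the ring. Hsd3b7 and Akr1d1 rework the ring in both pathways, and Amacr turns over the side chain before it is shortened in peroxisomes. Mouse Cyp2c70 makes the hydrophilic muricholic acids, Slc27a5 ligates bile acids to coenzyme A, and Baat transfers them to taurine. Bile acids hold back their own synthesis through the receptor FXR (Nr1h4), which induces the repressor SHP (Nr0b2) in the liver and the hormone Fgf15 in the intestine, and Cyp7a1 also follows a daily rhythm.

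The genes lie on several chromosomes, and all coordinates are those of the deposited tables on GRCm38, which match GENCODE M21. Cyp8b1 (chr9:121914356-121916305, minus strand) has a single exon, whereas the longest transcript of Slc27a5 (chr7:12988346-12998192, minus strand) has 10. Cyp7a1 lies at chr4:6265612-6275633 and Baat at chr4:49489422-49506557, both on the minus strand. Cyp7b1 spans chr3:18071950-18243338 and Cyp2c70 chr19:40153353-40187333, also on the minus strand. On the plus strand lie Cyp27a1 (chr1:74713574-74737892), Akr1d1 (chr6:37530173-37568815), Amacr (chr15:10981756-10996626) and Hsd3b7 (chr7:127800604-127803802). Hsd3b7 shares 1018 bases, 44.5% of its longest transcript, at 100% identity with the gene model Gm49388, so its values are uncertain to the extent that reads were split between them. Gm49388 was at 0 to 3.38 TPM against at least 252 TPM of Hsd3b7.

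Promoter sequences from RefSeq (GRCm38.p6, 250 bases before to 50 after the start) were at hand for 5 of the 10 genes, Cyp27a1, Akr1d1, Hsd3b7, Cyp8b1 and Cyp2c70. They were searched on both strands for CATTCC, the core site of the TEAD factors that YAP and TAZ bind, for CAAGGNCA, a site of LRH-1 (Nr5a2), and for CAAAGTCCA, a site of HNF4A. The stretches that hold a match are shown because Cyp8b1, which fell in both models, and Cyp2c70, which passed the test in neither, carry the same HNF4A letters. Whether HNF4A has a part in either level was not tested. Capitals mark the matches, and each stretch of 70 bases runs from 5′ to 3′ on the strand of the gene.
Cyp8b1: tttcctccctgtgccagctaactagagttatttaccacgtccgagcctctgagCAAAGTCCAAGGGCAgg
Cyp2c70: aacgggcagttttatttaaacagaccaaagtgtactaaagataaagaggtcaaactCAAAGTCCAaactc
Hsd3b7: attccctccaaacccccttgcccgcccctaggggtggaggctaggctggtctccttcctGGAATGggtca
The Cyp8b1 stretch (chr9:121916356-121916425, minus strand) holds CAAAGTCCA from base -67 and, overlapping its last bases, CAAGGGCA from base -60, both counted from the RefSeq start site, which is also the 5′ end of the gene given above. The Cyp2c70 stretch (chr19:40187337-40187406, minus strand) holds CAAAGTCCA from base -64 of the RefSeq start and no match to the other motifs. That start lies 47 bases inside the gene as placed above, and from the gene's own 5′ end the match begins at base -17. The Hsd3b7 stretch (chr7:127800534-127800603, plus strand) holds the TEAD core on the opposite strand, GGAATG, from base -16 of the RefSeq start or -11 of the 5′ end above. Cyp27a1 and Akr1d1 held no match in these windows. Of 32851 promoters of the same length, 14.7% held the TEAD core, 6.71% the LRH-1 site and 0.475% the HNF4A site, and a match is a run of letters, not a measured binding site.

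The labels were first checked on the deleted genes. Yap1 was at 1.67 to 3.72 TPM in YAP KO livers against 28.2 to 30.5 in WT (C57BL/6), while WT (mixed) livers held 31.0 to 33.2 TPM and YAP KO TAZ HET livers 8.63 to 11.5 TPM. For Wwtr1 YAP KO TAZ HET livers held 11.5 to 14.1 TPM and WT (mixed) livers 7.73 to 8.38 TPM, so its level gives no check of the lost copy, and it was at 13.3 to 16.7 TPM in YAP KO livers. The summed TPM of 8 hepatocyte markers overlapped between all groups (101900 to 125500 over the 12 livers), but single markers moved, with 3 lower and 1 higher in YAP KO and 2 lower and 1 higher in YAP KO TAZ HET livers. The shares of all genes were 18% lower and 18.8% higher, and 19% lower and 19.2% higher. Without the scaling described below, 2 markers were lower and 3 higher in YAP KO livers, beside 7.13% and 37.5% of all genes. In YAP KO TAZ HET livers 2 were then lower and 1 higher, beside 7.55% and 34.8%. Trf, of transferrin, rose from means of 10490 and 11440 TPM in WT to 30560 and 31620, and Alb, of albumin, had means of 78600 and 75450 in WT against 60140 (called lower) and 61510 TPM (not called). YAP KO TAZ HET LM225 stood apart from its group in clock genes and pericentral markers, described after the enzymes. Before testing, TPM were scaled between libraries by a trimmed mean of log ratios, 1 was added and log2 was taken, and every log2 fold change below is on that scale, with its standard error (SE) and the p-value of limma adjusted over all genes tested. The scaling bears on small changes: without it the median of all genes moved from -0.04 to 0.28 on the log2 scale in YAP KO livers, with 84.0% of all calls higher in place of 51.1%, while for YAP KO TAZ HET it moved from -0.04 to 0.24, with 82.2% higher in place of 50.2%.

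In YAP KO livers 5 of the 10 enzymes fell and none rose at an adjusted p under 0.05, and in YAP KO TAZ HET livers 8 fell and none rose (limma). Cyp8b1, Cyp27a1, Cyp7b1, Slc27a5 and Amacr fell in both models, and Cyp7a1, Hsd3b7 and Akr1d1 passed the test in YAP KO TAZ HET livers and not in YAP KO livers, but the difference between the models was itself not called for any of the 10 genes. Of all genes tested, 18% fell and 18.8% rose in YAP KO livers, and 19% fell and 19.2% rose in YAP KO TAZ HET livers. With all 12 libraries in 1 fit, 6 enzymes fell in YAP KO livers, where Hsd3b7 then passed (adjusted p = 0.0487, limma), while in YAP KO TAZ HET livers Hsd3b7 no longer did (0.0679). In that fit Baat passed as lower in YAP KO TAZ HET livers (adjusted p = 0.0403, limma), and 8 enzymes were again called there. The median log2 fold change was -0.61 over the 10 enzymes and -0.04 over 11704 genes in YAP KO livers, and -0.70 and -0.04 over 11741 genes in YAP KO TAZ HET livers. Only Cyp7b1, Slc27a5 and, in YAP KO TAZ HET livers, Cyp8b1 kept their call under each of the 16 alternatives run. The falls of Amacr in both models, of Cyp27a1 in YAP KO livers and of Cyp7a1, Hsd3b7 and Akr1d1 in YAP KO TAZ HET livers were not called under any of the other 3 scalings tried. The 5 and 8 enzymes called became 4 and 4 without scaling, of which 1 (Baat, YAP KO livers) was higher, 4 and 3 with quantile normalization, again with Baat higher in YAP KO livers, and 3 and 4 when the libraries were scaled by hepatocyte markers. Of all genes, 7.13% fell and 37.5% rose without scaling in YAP KO livers, and 7.55% and 34.8% in YAP KO TAZ HET livers. Without WT (mixed) LM227 or without YAP KO TAZ HET LM251, 5 enzymes were called in YAP KO TAZ HET livers. In TPM as deposited, all YAP KO livers lay below all of their littermates for 4 enzymes (Cyp8b1, Cyp27a1, Cyp7b1, Slc27a5), against 9.29% of all genes, and above them for 2 (Cyp2c70, Baat), against 47.5% of all genes. All YAP KO TAZ HET livers lay below theirs for 5 enzymes (the same 4 and Hsd3b7), against 10% of all genes, and above them for 0, against 44.4%. Because the tissue was whole liver, fewer cells of a type and less RNA per cell cannot be told apart.

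**Figure D1:**
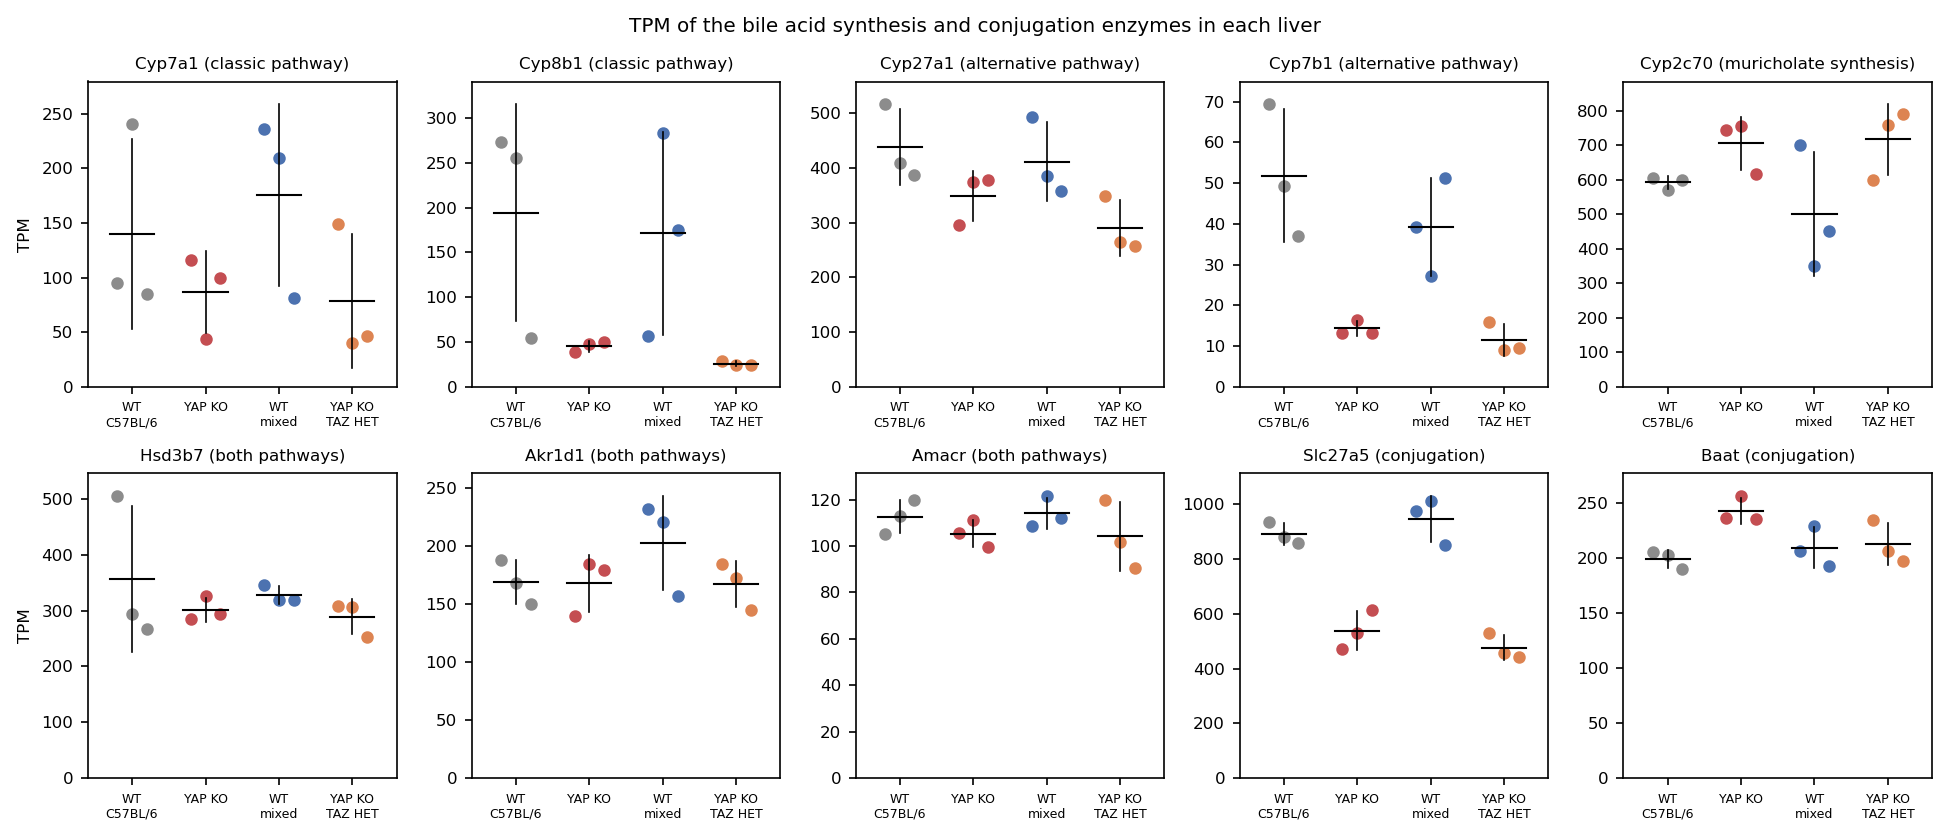
TPM (y axis, from 0) of each enzyme in each of the 12 livers, by group (x axis), with 1 point per liver, a line at the group mean and a bar of 1 SD. Cyp8b1, Cyp7b1 and Slc27a5 are lower in every knockout liver than in every WT littermate, with the WT livers of Cyp8b1 spread from 54.8 to 283 TPM.

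Cyp7a1, the first enzyme of the classic pathway, varied widely within each group. The WT (C57BL/6) livers held 94.7, 240 and 84.8 TPM, and their YAP KO littermates 116, 44.2 and 99.7 TPM. The WT (mixed) livers had 236, 210 and 80.9 TPM, and the YAP KO TAZ HET livers 149, 40.1 and 46.3 TPM. The groups overlapped in both sets, with 1 WT (mixed) liver at the low end of its group and 1 YAP KO TAZ HET liver at the high end. YAP KO livers gave a log2 fold change of -0.99 (SE 0.43, n = 3 against 3, adjusted p = 0.107 with limma). In YAP KO TAZ HET livers it was -1.59 (SE 0.51, n = 3 against 3, adjusted p = 0.0381 with limma), and this call was lost under 10 of 16 alternatives, with adjusted p from 0.00435 to 0.124. It was lost without WT (mixed) LM226 or LM227 (adjusted p = 0.120 and 0.110) and without YAP KO TAZ HET LM250 or LM251 (0.121 and 0.124), and without any scaling (log2 fold change -1.27, adjusted p = 0.084). Quantile normalization and hepatocyte-marker scaling also ended the call.

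Cyp8b1, the sterol 12-hydroxylase that makes cholic acid, fell in both models. WT (C57BL/6) livers held 273, 256 and 54.8 TPM of it, against 38.5, 47.3 and 50.0 TPM with YAP KO. WT (mixed) livers held 56.4, 283 and 175 TPM, against 28.7, 24.1 and 23.8 TPM with YAP KO TAZ HET. Every knockout liver lay below every littermate, although 1 WT liver of each set (LM193 and LM226) lay far below the others of its group, and LM193 close to the highest YAP KO liver. The coefficient of variation was 62.3% and 66.2% in the WT groups and 13.3% and 10.7% in the knockout groups. In YAP KO livers its log2 fold change was -2.13 (SE 0.55, adjusted p = 0.0175, limma), a level 0.228 times that of WT. It was -2.74 (SE 0.51, adjusted p = 0.00399, limma), or 0.150 times WT, in YAP KO TAZ HET livers, and with 1 liver left out it ranged from -2.23 (without WT LM227) to -3.44 (without WT LM226), called each time. The call in YAP KO livers was lost with robust shrinkage of the variances (adjusted p = 0.0638) and without YAP KO LM74 (0.0610) or WT (C57BL/6) LM192 (0.0609), whereas without WT LM193 the log2 fold change was -2.88 (adjusted p = 0.000103).

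Cyp27a1, the mitochondrial sterol 27-hydroxylase, was the more abundant enzyme of the alternative pathway and moved less than Cyp7b1. WT (C57BL/6) livers held 516, 409 and 387 TPM and YAP KO livers, just below the lowest littermate, 296, 374 and 377 TPM. WT (mixed) livers held 493, 384 and 357 TPM, and those with YAP KO TAZ HET 349, 264 and 258 TPM. Its log2 fold change was -0.68 (SE 0.18, adjusted p = 0.0194, limma) in YAP KO livers and -0.82 (SE 0.13, adjusted p = 0.00212, limma) in YAP KO TAZ HET livers. Across the alternatives it ranged from -0.77 to -0.30 and from -0.93 to -0.42, with the call lost under 5 and 2 of 16.

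Cyp7b1, the oxysterol 7-hydroxylase of the same pathway, fell in both models with smaller standard errors than Cyp8b1. The 3 WT (C57BL/6) livers held 69.4, 49.2 and 37.0 TPM, against 13.3, 16.5 and 13.2 TPM with YAP KO. The 3 WT (mixed) livers held 39.1, 27.2 and 51.2 TPM, against 16.0, 8.98 and 9.58 TPM with YAP KO TAZ HET. The lowest WT liver of either set (27.2 TPM) stood above the highest knockout liver (16.5 TPM). The log2 fold change was -2.09 (SE 0.23, adjusted p = 0.000366, limma) in YAP KO livers and -1.98 (SE 0.25, adjusted p = 0.000642, limma) in YAP KO TAZ HET livers, which are 0.235 and 0.253 times the WT level. No alternative ended either call, and the largest adjusted p were 0.00235 and 0.0044.

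The enzymes of steps that both pathways use moved less. Hsd3b7, the 3-beta-hydroxy-delta5-C27-steroid dehydrogenase, had 505, 294 and 268 TPM in the WT (C57BL/6) group, against 284, 326 and 295 TPM with YAP KO. In the WT (mixed) group it had 345, 319 and 319 TPM, against 309, 306 and 252 TPM with YAP KO TAZ HET. The YAP KO livers overlapped their littermates, of which LM75 alone was high, and the YAP KO TAZ HET livers lay just below theirs. In YAP KO livers this gave a log2 fold change of -0.54 (SE 0.24, adjusted p = 0.117, limma). In YAP KO TAZ HET livers it was -0.51 (SE 0.10, adjusted p = 0.00612, limma), and without scaling -0.18, with the call lost.

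Akr1d1, the 5-beta-reductase that bends the steroid ring, overlapped between knockout and WT livers in both sets. WT (C57BL/6) livers held 150 to 188 TPM and YAP KO livers 140 to 184 TPM, and WT (mixed) livers held 157 to 232 TPM and YAP KO TAZ HET livers 145 to 185 TPM. Its log2 fold change was -0.37 (SE 0.17, adjusted p = 0.126, limma) in YAP KO livers and -0.58 (SE 0.14, adjusted p = 0.0136, limma) in YAP KO TAZ HET livers, and that call was lost under 7 of 16 alternatives. Amacr, the racemase of the side chain, stayed within 90.7 to 122 TPM in all 12 livers. WT (C57BL/6) livers held 105 to 120 TPM and YAP KO livers 99.4 to 111 TPM, and WT (mixed) livers held 109 to 122 TPM and YAP KO TAZ HET livers 90.7 to 120 TPM. Its falls of 0.45 (SE 0.11, adjusted p = 0.0113) and 0.46 (SE 0.12, adjusted p = 0.015) on the log2 scale in limma came with the scaling. Without scaling they were 0.10 and 0.14, and neither was called.

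Cyp2c70, which makes muricholic acids, passed the test in neither model. WT (C57BL/6) livers held 607, 571 and 600 TPM, against 744, 757 and 617 TPM with YAP KO. WT (mixed) livers held 702, 352 and 451 TPM, against 600, 760 and 792 TPM with YAP KO TAZ HET. The YAP KO livers lay above their littermates in TPM, while the mixed set overlapped through WT LM226. Its log2 fold change in YAP KO livers was -0.11 (SE 0.12, 95% interval -0.38 to 0.15, adjusted p = 0.475, limma), and its sign turned to 0.25 without scaling, 0.24 with quantile normalization and 0.19 with hepatocyte-marker scaling. In YAP KO TAZ HET livers it was 0.24 (SE 0.23, 95% interval -0.29 to 0.78, adjusted p = 0.445, limma). In neither model did any alternative bring it under 0.05.

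Of the conjugation enzymes, Slc27a5, the bile acid CoA ligase, was the highest of the 10 genes in both WT groups and fell in both models. WT (C57BL/6) livers held 934, 879 and 856 TPM, against 471, 530 and 612 TPM with YAP KO. WT (mixed) livers held 975, 1012 and 852 TPM, against 530, 455 and 444 TPM with YAP KO TAZ HET. No knockout liver reached the lowest WT liver, and the groups were tight. The log2 fold change was -1.09 (SE 0.15, adjusted p = 0.00096, limma) in YAP KO livers, 0.468 times WT, and -1.31 (SE 0.11, adjusted p = 8.74e-05, limma) in YAP KO TAZ HET livers, 0.403 times WT. Under the alternatives it stayed between -1.21 and -0.71 in the first and between -1.36 and -0.85 in the second, and each kept the call.

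Baat, the transferase that completes conjugation, passed the test in neither model in the main fits. The 3 WT (C57BL/6) livers held 206, 203 and 190 TPM, against 237, 257 and 235 TPM with YAP KO. The 3 WT (mixed) livers held 207, 230 and 193 TPM, against 235, 207 and 198 TPM with YAP KO TAZ HET. The YAP KO livers lay above their littermates in TPM and the mixed set overlapped. Under the main scaling its log2 fold change in YAP KO livers was -0.08 (SE 0.11, adjusted p = 0.613, limma), and it turned to 0.28 (adjusted p = 0.0257, limma) without scaling and 0.26 (adjusted p = 0.0336, limma) with quantile normalization, where Baat was called higher. In YAP KO TAZ HET livers it was -0.30 (SE 0.11, adjusted p = 0.059, limma), with 0.02 and 0.06 under the same settings, neither called. With all 12 libraries in 1 fit, Baat was called lower in YAP KO TAZ HET livers (adjusted p = 0.0403, limma).

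**Figure D2:**
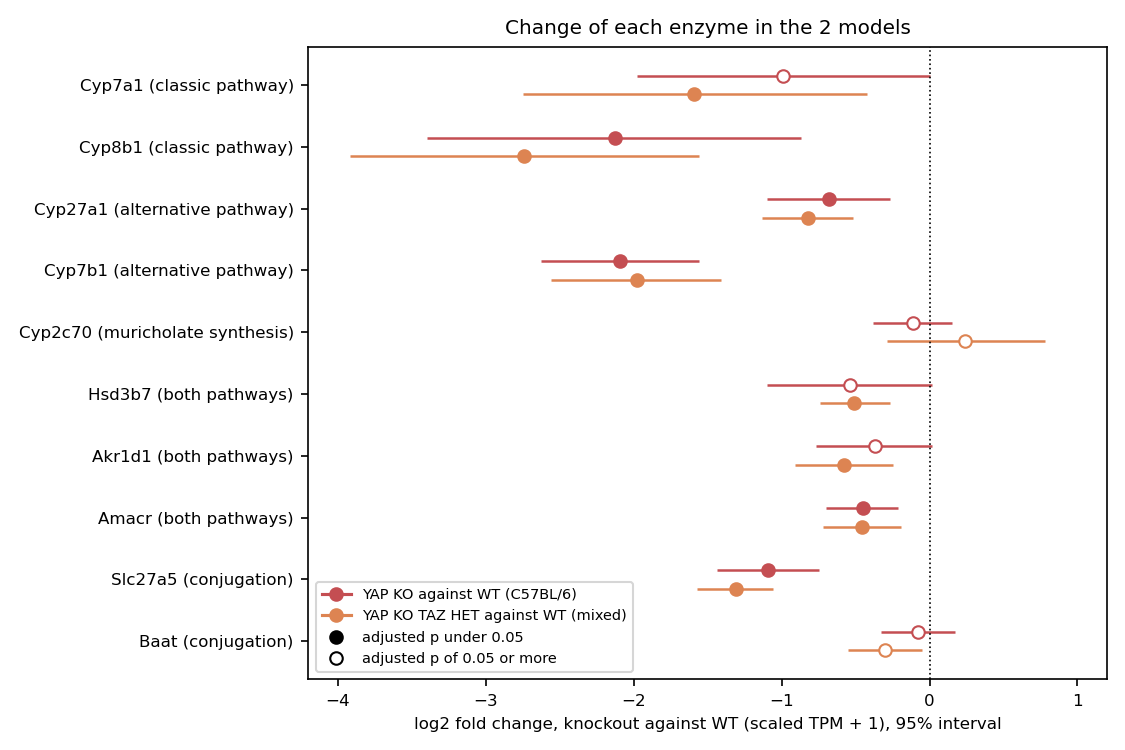
Log2 fold change (x axis, scaled TPM + 1) of each enzyme (y axis) in each model against its WT littermates, with 95% intervals and filled points where the limma p adjusted over all genes is under 0.05. Cyp8b1 and Cyp7b1 lie near -2 or below in both models, and Cyp2c70 and Baat lie near 0.

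**Figure D3:**
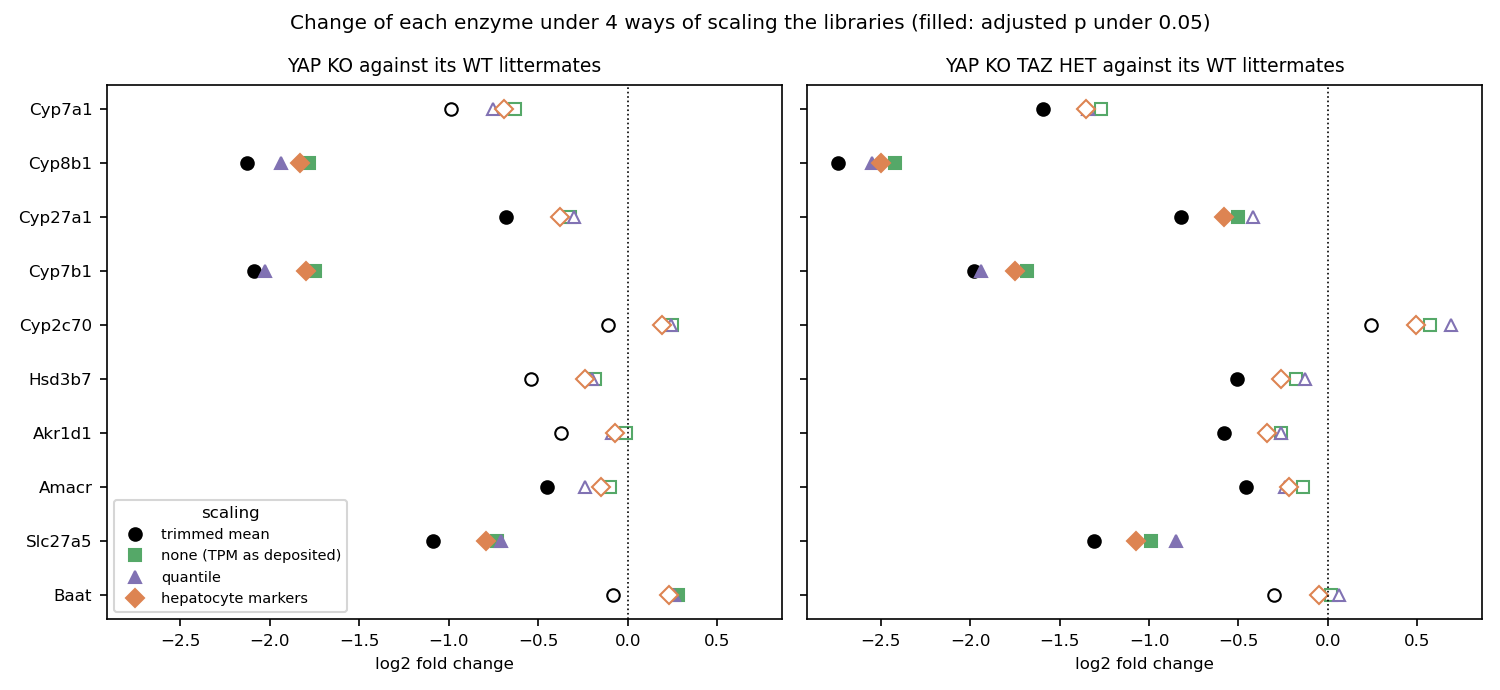
Log2 fold change (x axis) of each enzyme (y axis) in each model under 4 ways of scaling the libraries, with filled points where the adjusted p is under 0.05. Cyp8b1, Cyp7b1 and Slc27a5 are filled under each scaling in both models, while the points of Akr1d1, Amacr and Hsd3b7 move toward 0 and those of Baat and Cyp2c70 in YAP KO livers cross it.

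The order of the levels per gene length changed at the top. In both WT groups Slc27a5 came first (means of 889 and 946 TPM) and Cyp2c70 second (593 and 502 TPM). In both knockout groups Cyp2c70 came first (706 and 717 TPM) and Slc27a5 second (537 and 476 TPM), and in each of the 4 groups the values of the pair did not overlap. Cyp27a1 and Hsd3b7 followed in every group and overlapped in all but WT (mixed). Cyp7b1 was lowest in each group, apart from its neighbour in all 4. Cyp8b1 went from 6th of 10 in WT (C57BL/6) and 8th in WT (mixed), where it overlapped its neighbours, to 9th in both knockout groups.

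Summed by pathway in TPM, the classic pair ranged from 139.7 to 495.7 in WT (C57BL/6) and from 91.5 to 154.5 in YAP KO livers, which overlapped, while WT (mixed) livers, at 255.7 to 492.9, lay above YAP KO TAZ HET livers, at 64.2 to 177.7. The alternative pair, most of it Cyp27a1, made up 424 to 585.6 TPM in WT (C57BL/6), 309.3 to 390.4 in YAP KO, 408.1 to 532.3 in WT (mixed) and 267.3 to 365 in YAP KO TAZ HET livers. The conjugation pair made up 1046 to 1139, 707.7 to 847, 1045 to 1242 and 641.5 to 765.1 TPM in the same order of groups. Both of these pairs were lower in every knockout liver than in every littermate.

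A ratio of 2 enzymes within a liver does not depend on the scaling, so 5 ratios were compared between knockout and WT livers with an exact two-sided permutation test within both sets (n = 6 against 6, smallest possible p 0.005) and adjusted over the 5. The ratio of Cyp2c70, the muricholate enzyme, to Cyp8b1, the cholate enzyme, was 2.23, 2.24 and 10.9 in WT (C57BL/6) and 19.4, 16.0 and 12.4 in YAP KO livers. In WT (mixed) livers it was 12.4, 1.24 and 2.58, and in YAP KO TAZ HET livers 20.9, 31.5 and 33.2. It was higher in every knockout liver than in its littermates by 2.54 on the log2 scale (2.04 in the C57BL/6 set and 3.03 in the mixed set, exact permutation p = 0.005, adjusted 0.0125). The adjusted value was not under 0.05 without YAP KO TAZ HET LM225, LM250 or LM251 (exact permutation, 0.05, 0.0625 and 0.0625). Over all 12 livers this ratio overlapped, with YAP KO LM191 at 12.35 and WT (mixed) LM226 at 12.45. The ratio of Baat to Slc27a5 was 0.220 to 0.231 in WT (C57BL/6) and 0.385 to 0.503 in YAP KO livers, and 0.212 to 0.227 in WT (mixed) and 0.443 to 0.455 in YAP KO TAZ HET livers. It was higher by 1.02 on the log2 scale, with 1.02 and 1.01 in the sets and no overlap over all 12 livers (exact permutation p = 0.005, adjusted 0.0125).

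The ratios that set the other enzymes against Cyp7a1 spread too widely to be told apart from the replicate error. Cyp8b1 to Cyp7a1 was lower by 1.17 on the log2 scale in knockout livers (exact permutation p = 0.105, adjusted 0.175, and 0.0417 without WT (mixed) LM226) and Cyp7b1 to Cyp7a1 by 0.83 (p = 0.155, adjusted 0.194, exact permutation). Cyp27a1 to Cyp7a1, the alternative against the classic start, was higher by 0.55 (exact permutation p = 0.245, adjusted 0.245). All 3 overlapped within both sets.

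**Figure D4:**
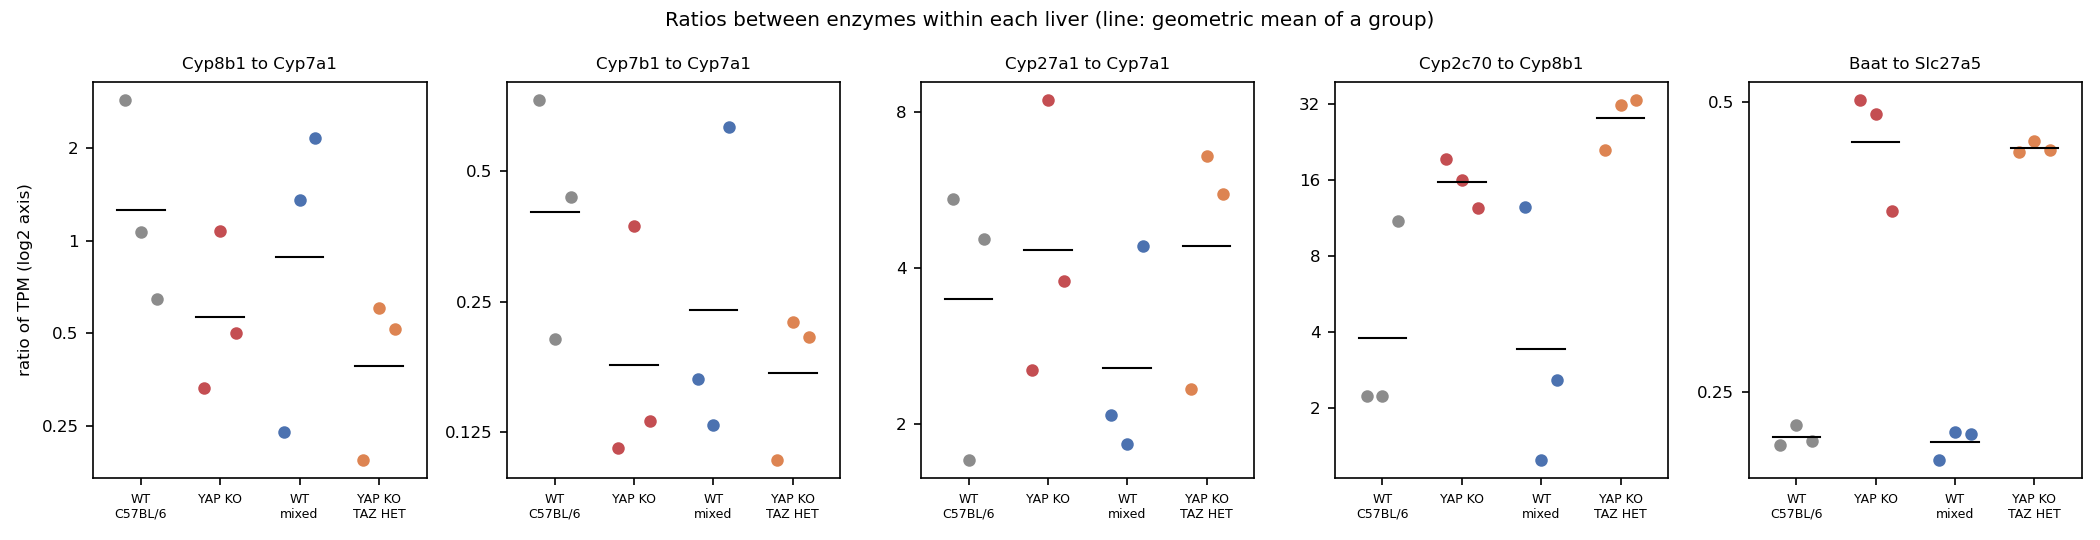
Ratio of TPM between 2 enzymes within each liver (y axis, log2 axis) by group (x axis), with a line at the geometric mean of each group. The ratios of Cyp2c70 to Cyp8b1 and of Baat to Slc27a5 are higher in each knockout liver than in its WT littermates, and the 3 ratios against Cyp7a1 overlap.

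The change of the enzymes was also set between the models. In a limma contrast over all 12 livers (n = 3 in each of 4 groups) 0 members and 8 of 12159 genes (0.0658%) were called, with 557 genes and 0 members at an unadjusted p under 0.05. The intervals of the difference between the log2 fold changes (YAP KO minus YAP KO TAZ HET) were wide for the variable genes, from -1.06 to 2.25 for Cyp7a1 and from -1.28 to 2.48 for Cyp8b1. They were narrow for Slc27a5 (-0.20 to 0.62), Baat (-0.11 to 0.54) and Amacr (-0.34 to 0.33), so differences of over 2-fold lie outside them. Between the WT groups, 0 members and 24 of 11126 genes (0.216%) differed, with 649 genes and 0 members at an unadjusted p under 0.05. The WT difference nearest the threshold (mixed minus C57BL/6) was that of Cyp2c70, -0.36 (95% interval -0.83 to 0.11, adjusted p = 0.930, limma).

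A list of 19 other genes covered the remaining steps, from oxysterol and peroxisomal enzymes to the supply of taurine. Of 18 tested, 11 fell, 2 rose and 5 did not pass in YAP KO livers (median log2 fold change -0.60), and 12 fell, 2 rose and 4 did not pass in YAP KO TAZ HET livers (-0.62). Of all genes tested, 18% fell and 18.8% rose in YAP KO livers, and 19% fell and 19.2% rose in YAP KO TAZ HET livers. Without scaling, 8 of the list fell and 4 rose in YAP KO livers, beside 7.13% and 37.5% of all genes. In YAP KO TAZ HET livers 9 then fell and 3 rose, beside 7.55% and 34.8%. Cyp46a1, the cholesterol 24-hydroxylase, fell by 1.68 and 2.09 on the log2 scale (adjusted p = 0.00042 and 0.000109, limma), from group means of 3.21 and 4.55 TPM in WT to 0.478 and 0.482 TPM, which are 0.149 and 0.106 times WT. The pseudocount of 1 shrinks the fold of so low a gene, and with 0.1 in its place the log2 fold changes were -2.81 and -3.34. Slc27a2, a CoA ligase that activates bile acid precursors, fell by 1.47 and 1.51 (adjusted p = 4.08e-05 and 0.000617, limma), from 827 and 834 TPM to 382 and 366 TPM. Csad, which makes the taurine precursor hypotaurine from cysteine sulfinate, rose by 1.78 and 2.08 (adjusted p = 0.00585 and 0.000763, limma). Its TPM were 36.8 to 96.0 in WT (C57BL/6), 193 to 279 in YAP KO, 23.1 to 41.1 in WT (mixed) and 121 to 230 with YAP KO TAZ HET, with no overlap. The direction and call of these 3 genes held under each scaling tried.

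Among 16 regulators of the pathway, 15 were tested, of which 7 fell and 0 rose in YAP KO livers and 9 fell and 0 rose in YAP KO TAZ HET livers. The shares of all genes that fell were 18% and 19%, and those that rose 18.8% and 19.2%. Without scaling 4 and 5 regulators fell and 1 rose in each model. The shares of all genes were then 7.13% and 7.55% lower and 37.5% and 34.8% higher. Nr1h4 (FXR), the bile acid receptor, was at 97.3 to 128 TPM in WT (C57BL/6) and 60.2 to 75.8 in YAP KO livers, and at 114 TPM in each WT (mixed) liver and 53.3 to 87.5 in YAP KO TAZ HET livers. It fell by 1.10 and 1.11 on the log2 scale (adjusted p = 0.000513 and 0.00102, limma), and the call held under each scaling. Nr0b2 (SHP), the repressor that FXR induces, had a log2 fold change of -0.54 (adjusted p = 0.0706, limma) in YAP KO livers and fell by 0.88 (adjusted p = 0.00115, limma) in YAP KO TAZ HET livers.

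Hnf4a and Nr5a2 (LRH-1) are activators of Cyp7a1 and Cyp8b1, whose sites were searched in the promoters shown above. Hnf4a had log2 fold changes of -0.07 and -0.11 (adjusted p = 0.746 and 0.545, limma), which turned to 0.29 and 0.21 without scaling. Nr5a2 had -0.17 and -0.36 (adjusted p = 0.266 and 0.048, limma), which became 0.18 and -0.05 without scaling, neither called. Fgf15, the intestinal hormone, is listed at 0 in all 12 livers. The largest changes of the list were in Nr1i3 (CAR), which fell by 2.32 and 1.85, and in Ppara, which fell by 1.55 and 1.88 (largest adjusted p of the 4 values 0.0027, limma), both under each scaling.

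Because Cyp7a1 follows the day, 12 clock genes were read in the same libraries. Of 11 tested, 6 fell and 2 rose in YAP KO livers and 7 fell and 2 rose in YAP KO TAZ HET livers. Beside them, 18% of all genes fell and 18.8% rose in YAP KO livers, and 19% fell and 19.2% rose in YAP KO TAZ HET livers. The 2 that rose are thus near the share of all genes. Dbp, a clock output gene chosen here after its values were seen, was at 182 to 199 TPM in WT (C57BL/6) and 219 to 248 TPM in WT (mixed) livers. YAP KO livers held 10.4, 2.05 and 48.0 TPM, and YAP KO TAZ HET livers 161, 11.2 and 14.1 TPM. The YAP KO TAZ HET liver with 161 TPM (LM225) stood apart from its group in this way, and also had the highest Cyp7a1 of the group, 149 TPM. It differed in pericentral hepatocyte markers too, which summed to 4536 TPM there and to 2018 and 2082 TPM in the other livers of its group, with Glul, of glutamine synthetase, at 606 TPM against 152 and 154 TPM. In that liver Cyp8b1 (28.7 TPM), Cyp7b1 (16.0 TPM) and Slc27a5 (530 TPM) were still below every WT liver. Without it the log2 fold change of Cyp7a1 was -2.14 (adjusted p = 0.00435, limma), and 8 of the 10 enzymes were again called.

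Over the 12 livers, which share genotype groups and scaling, Pearson's r between Cyp7a1 and Dbp on the log2 scale was 0.786, and 0.637 after the group means were removed. For Cyp8b1 these values were 0.674 and 0.076, and for Cyp7b1 0.781 and 0.180. The coefficient of variation of Dbp was 4.47% and 6.34% in the WT groups and 121.5% and 137.9% in the knockout groups. The r with Dbp within groups therefore rests largely on the knockout livers, LM225 among them. In the WT livers, where Dbp varied little, Cyp7a1 ran from 80.9 to 240 TPM. Over all 12 clock genes the r of Cyp7a1 within groups ran from -0.686 (Arntl) to 0.766 (Per3), with 3 genes (Nr1d1, Per1, Cry1) within 0.2 of 0. That of Cyp8b1 ran from -0.279 to 0.284, with 9 genes within 0.2 of 0. That of Cyp7b1 ran from -0.588 (Cry1) to 0.383 (Clock), with 8 genes within 0.2 of 0. The part of the clock genes, of pericentral markers or of the hour at which livers were taken in the level of Cyp7a1 was not tested.

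**Figure D5:**
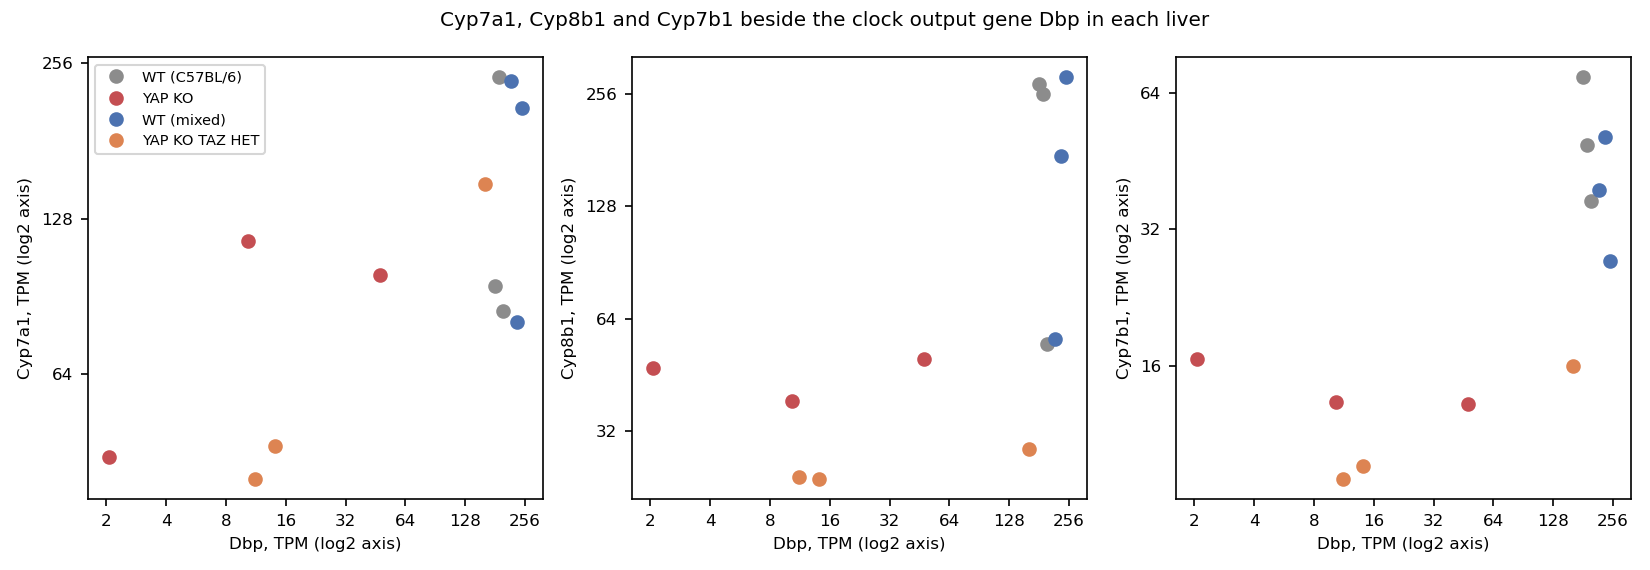
TPM of Cyp7a1, Cyp8b1 and Cyp7b1 (y axes, log2 axes) against TPM of Dbp (x axis, log2 axis), with 1 point per liver coloured by group. The YAP KO TAZ HET liver with Dbp at 161 TPM lies among the WT livers for Cyp7a1 (149 TPM) but below all of them for Cyp8b1 (28.7 TPM) and Cyp7b1 (16.0 TPM). The YAP KO livers with Cyp7a1 at 99.7 and 116 TPM lie among the WT livers for Cyp7a1 too, and no YAP KO liver had Dbp above 48.0 TPM.

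Markers of other cell types moved with the knockouts as well. Beside the 18.8% and 19.2% of all genes that rose, 7 of 8 macrophage markers rose in each model, with summed TPM of 197 to 243 and 169 to 351 in the WT groups against 612 to 909 in YAP KO and 720 to 760 in YAP KO TAZ HET livers. Of 8 stellate cell and fibroblast markers 5 rose in each model, with summed TPM of 129 to 155 and 112 to 149 in the WT groups against 385 to 494 and 315 to 399. Of 9 pericentral hepatocyte markers 7 fell in each model, with summed TPM of 9844 to 12200 and 9172 to 12630 against 2656 to 3430 and 2018 to 4536, and 8 fell in YAP KO TAZ HET livers without LM225. Most of the sum in the WT groups was Cyp2e1 (means of 8585 and 7725 TPM). In TPM, Cyp2e1, Glul, Cyp1a2 and Slc1a2 were lower in every knockout liver than in its littermates. Rhbg, Axin2, Lgr5 and Tbx3 overlapped in both sets, and Oat in the mixed set. Of 8 periportal markers 3 fell and 1 rose in YAP KO livers and 4 fell and 1 rose in YAP KO TAZ HET livers, with summed TPM of 7688 to 10990 and 9547 to 12470 against 6668 to 11440 and 8563 to 10550. Without scaling, 2 periportal markers fell and 1 rose in each model, and 5 and 6 pericentral markers fell. The shares of all genes that fell were then 7.13% and 7.55%. Of 8 cholangiocyte markers 5 were tested and 2 rose in each model, 1 fell in YAP KO TAZ HET livers, and Epcam and Krt19 reached at most 6.39 TPM in any liver. Their summed TPM, most of it Spp1, were 36.8 to 64.4 and 50.3 to 67.0 in the WT groups against 336 to 759 and 110 to 231. Of 6 neutrophil and monocyte markers 6 rose in YAP KO livers, and 3 of 5 tested rose in YAP KO TAZ HET livers, with summed TPM of 9.32 to 15.4 and 5.79 to 7.96 against 53.8 to 61.9 and 13.1 to 58.4. Of 6 endothelial markers 1 rose and 2 fell in each model, with summed TPM between 61.9 and 101 in all livers. The part of these cells in the falls of the enzymes was not tested, and the hepatocyte-marker scaling kept 3 calls in YAP KO livers (Cyp8b1, Cyp7b1, Slc27a5) and 4 in YAP KO TAZ HET livers (the same 3 and Cyp27a1).

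The genes whose levels followed these enzymes most closely were ranked by Pearson's r of the scaled log2 values over the 12 livers among 12158 genes, as a description. For Cyp7a1 they were Foxk2 (r = 0.942), Zfp612 (0.911), Zfp235 (0.910), Slc7a5 (0.909) and Ercc6 (0.894), with r from 0.815 to 0.933 after group means were removed. For Cyp8b1 they included Mfsd3 (0.962), Ppm1k (0.952), Prss36 (0.947) and Tgfbr3 (0.945), with 0.800 to 0.935 within groups. For Cyp7b1 they were Keg1 (0.979), Serpina3k (0.977), Fahd1 (0.975), Fdx1 (0.972) and Cyp2g1 (0.972), with 0.633 to 0.775 within groups. The livers of a group share genotype and scaling, and genes highest of so many by r are so in part by selection, as are their values within groups.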

How the data were processed

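RNA from 12 whole livers, 3 in each of 4 groups taken from the labels, was sequenced by the study, and per gene and liver the authors deposited TPM, made in CLC Genomics Workbench from alignments to GRCm38.p6. The authors also deposited edgeR comparisons of each model with its littermates (linear and log2 fold changes, p-values, false discovery rates), which were not used. TPM was divided by a trimmed-mean factor (trimming, on either side, 30% of the log ratios and 5% of the levels), 1 was added and log2 was taken. Genes that reached 1 TPM in 3 or more livers entered limma 3.58.1 under R 4.3.3 (eBayes with trend, two-sided, Benjamini-Hochberg over all genes tested, threshold 0.05). Ratios were tested by exact permutation. Copies were sought with blastn 2.17.0 (80% identity, 30% of the length as minima). Fits were first tested on simulated data.

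The 10 members and the gene lists were chosen with earlier results of these data known. The text names all 10, of the 2 lists of other steps and of regulators the 3 genes with the largest change among those called, Nr1h4, Nr0b2, Nr5a2, Hnf4a and Fgf15, the 5 genes most like Cyp7a1, Cyp8b1 and Cyp7b1 (1 of which is not reported here), and the deleted genes. Alternatives were pseudocount 0.1, no filter, a minimum of 5 TPM, 3 other scalings, robust shrinkage, an adjusted p under 0.01, a change over 2-fold, all 12 libraries in 1 fit and each liver left out. TPM keeps no depth, and the methods state only a planned one. Whether livers of a group came from separate litters is not given. The p-values treat each liver as independent and do not account for shared litters.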

Additional observations from a re-analysis of the deposited data

How the results depend on the processing

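The number of enzymes called in YAP KO livers (5) became 3 with hepatocyte-marker scaling, 2 at an adjusted p under 0.01, 3 with a change over 2-fold and 6 with all 12 libraries in 1 fit. In YAP KO TAZ HET livers 8 became 4 without scaling, 3 with quantile normalization, 4 with hepatocyte-marker scaling, 5 at an adjusted p under 0.01 and 4 over 2-fold. Leaving out 1 liver gave 4 to 5 and 5 to 8. The ratio of Cyp2c70 to Cyp8b1 ranged from 2.17 to 3.01 and that of Cyp8b1 to Cyp7a1 from -1.64 to -0.85 on the log2 scale with 1 liver left out, where the exact adjusted p of the first was not under 0.05 in 3 cases and that of the second was in 1. The sign of Cyp2c70 in YAP KO livers turned to 0.25, 0.24 and 0.19 and that of Baat to 0.28, 0.26 and 0.23 without scaling, with quantile normalization and with hepatocyte-marker scaling, and that of Baat in YAP KO TAZ HET livers to 0.02 and 0.06 in the first 2. The difference between the models for Hsd3b7 turned to 0.02 with hepatocyte-marker scaling and ranged from -0.22 to 0.26 with 1 liver left out, as did that for Cyp8b1 from -0.15 to 1.29 and that for Cyp7b1 from -0.36 to 0.14. The difference between the WT groups for Amacr turned to 0.02 without scaling and ranged from -0.11 to 0.04 with 1 liver left out, and others changed sign there too: Cyp8b1 (-0.96 to 0.49), Hsd3b7 (-0.29 to 0.18), Baat (-0.08 to 0.06) and Slc27a5 (-0.04 to 0.08). None of these differences was called under any alternative. The cause of these changes was not tested. The WT mice are littermates of the knockouts, but which mice shared a litter is not given in the sources used here. No pairing by litter was therefore made. The depth reached is not in the files, and 3 livers a group limit what can be called.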
